A study of Mus musculus with 12 samples.

Results

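The p53 pathway was examined in gonadal white fat of mice lacking Gadd45a, Ing1 or both, through 35 genes. They were chosen by name: the gene of the transcription factor itself (Trp53), its inhibitors, and target genes known to act in cell cycle arrest, apoptosis, DNA repair and metabolism. All 35 were among the 20887 named genes on the array, through 43 probes. Of these genes, 34 had a signal well above background on 3 arrays or more of the 12 and were tested, among 15961 named genes and 31461 genes or unnamed probes tested in all. Eda2r, a receptor of the same family as Fas, was above background on 0 of 12 arrays with each of its probes and was not tested.

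The fat came from C57BL/6N males aged 59 to 67 days of 4 genotypes: wild type (WT), Gadd45a-/- (Gadd45a-KO), Ing1-/- (Ing1-KO) and the double mutant Gadd45a-/-;Ing1-/- (DKO), obtained by crossing both mutant lines. Both deletions are constitutive, so every cell type of the tissue carries them. Each genotype had 9 animals, and RNA of 3 of them was pooled for each of 3 arrays. The spread between arrays therefore measures the spread between pools, and differences between single animals are not seen. Levels are given as normalized log2 signal of 1 probe per gene, and a difference of 1 on this scale is a doubling. Levels of different probes are not comparable with each other.

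p53 is a transcription factor that is kept low by Mdm2, a ubiquitin ligase that marks it for degradation, and by the related Mdm4, which covers its activation domain. Stress frees p53, which then binds response elements made of 2 half-sites and switches on genes that stop the cell cycle, repair DNA or start apoptosis, Mdm2 among them. Gadd45a is itself a classical target of p53. Ing1 belongs to a family of proteins that read methylated histone H3 and recruit histone-modifying complexes, and forms of it have been linked to p53. In adipose tissue p53 is known for roles in lipid metabolism, adipocyte differentiation and inflammation.

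The start regions of these genes show which of them carry the letters of a p53 element close to the gene start. RefSeq windows of build GRCm38.p6, from 250 bases before to 50 after each start, were on hand for 27 of the 35 genes (37 windows). Pmaip1, Perp, Zmat3, Trp53inp1, Tnfrsf10b, Xpc, Ddb2 and Rrm2b had no entry. The p53 half-site consensus is 10 bases long, reads the same on both strands and was searched with no mismatch allowed. It stood in 12 of 37 windows (32.4%), from 11 of the 27 genes, against 8.36% of all 32851 windows. A pair of exact half-sites at most 13 bases apart stood in the window of Cdkn1a only, with a spacer of 12 bases. Of all windows, 0.0731% held such a pair. In Cdkn1a the stretch tgacatgttc, directly after the second half-site with no spacer, departs from the consensus in its first base and was not counted. Which of these stretches p53 binds was not tested. The sequences below belong to the hub, to Cdkn1a and to the genes with a half-site that differed with Ing1. Each shows up to 40 bases on either side, written 5′ to 3′ along the gene's strand with the half-sites in capitals. They lie at chr17:29090866-29090977 (plus strand) for Cdkn1a, chr11:69580244-69580333 (plus) for Trp53, chr10:117710895-117710984 (minus) for Mdm2, chr11:40755422-40755511 (minus) for Ccng1, chr9:36797335-36797384 (minus) for Ei24 and chr7:45467050-45467139 (minus) for Bax.
Cdkn1a: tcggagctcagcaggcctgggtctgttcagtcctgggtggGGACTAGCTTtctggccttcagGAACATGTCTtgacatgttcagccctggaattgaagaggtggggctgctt
Trp53: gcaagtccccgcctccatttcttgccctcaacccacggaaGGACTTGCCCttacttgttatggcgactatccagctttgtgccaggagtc
Mdm2: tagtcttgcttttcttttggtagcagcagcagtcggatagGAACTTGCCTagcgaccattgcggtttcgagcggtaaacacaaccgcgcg
Ccng1: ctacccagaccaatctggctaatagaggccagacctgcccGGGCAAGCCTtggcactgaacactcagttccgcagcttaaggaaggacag
Ei24: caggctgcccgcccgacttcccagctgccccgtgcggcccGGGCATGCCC
Bax: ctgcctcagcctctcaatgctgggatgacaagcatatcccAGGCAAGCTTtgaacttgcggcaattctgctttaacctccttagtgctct

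RefSeq gives 2 windows for Cdkn1a. In 1 of them the half-sites span bases -73 to -42 from the start, and the other held none. The single half-site of Ei24 ends at base -1, directly before the start. Those of Mdm2, Ccng1 and Bax lie further out, beginning at bases -186, -185 and -201, and that of Trp53 begins at -75. Windows of Mdm4, Dram1, Psrc1 and Gdf15 held no half-site. A match is a description of letters in a window and does not show binding, and p53 elements often lie outside such windows.

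Before the results, 3 arrays stood apart. Ing1-KO replicate 1, DKO replicate 1 and DKO replicate 2 carried transcripts of the epidermis, a list of 12 genes set up after the data had been seen. All 12 were above background on each of these 3 arrays, and their mean level lay 4.15, 3.29 and 3.51 above each gene's own mean over all arrays. On Gadd45a-KO replicate 1 it lay 0.39 above, with 10 of 12 genes above background, and on the other arrays between -1.74 and -1.12, with 4 to 7 genes above background. Skeletal muscle genes were also high on Ing1-KO replicate 1 (3.97), DKO replicate 1 (2.07) and Gadd45a-KO replicate 1 (1.33). All 3 epidermal arrays lack Ing1 and sit in the third array column of their slides. For the genes and lists that passed with Ing1 loss, values without these 3 arrays are given too. Each slide held 1 array of every genotype, and the replicate number is the slide.

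Across arrays, 58.2% to 68.1% of spots were well above background, and no probe was saturated. Ing1 itself had 12.46 ± 0.03 (SD, n = 3) in WT, 12.55 ± 0.21 in Gadd45a-KO, 9.40 ± 0.13 in Ing1-KO and 9.32 ± 0.25 in DKO, so the Ing1 labels hold on every array. The Gadd45a probe went the other way. It had 9.51 ± 0.25 in WT and 10.17 ± 0.11 in Gadd45a-KO, with 9.20 ± 0.12 in the Ing1 single mutant and 10.61 ± 0.01 in DKO (higher by 1.03, SE 0.09, limma adjusted p = 0.00413). Where this probe lies relative to the deleted stretch was not known here. Statements on Gadd45a loss therefore hold for the libraries as labelled. Detected RNA from fat markers was high in every group, with Plin1 between 15.00 and 15.73 on average.

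The largest set of differences among the p53 genes followed Ing1. Comparing the 6 arrays without Ing1 with the 6 that have it (the mean of both single effects), 9 of 34 genes (26.5%) passed an adjusted p of 0.05 in limma, beside 16.0% of all genes tested. Ccng1, Ei24 and Dram1 rose (3 of 34, beside 6.93% of all genes), and Mdm2, Mdm4, Psrc1, Bax, Pmaip1 and Gdf15 fell (6 of 34, beside 9.09%). The median over the 34 genes was -0.06, and over all genes -0.04, so the set did not move as a whole in 1 direction. An unadjusted p under 0.05 in limma was found for 12 of the 34 (35.3%), near the 32.9% of all genes. Groups of 6 did not overlap for 7 of the 34 genes (20.6%), beside 8.29% of all genes. Cdkn1a, the classical p53 target, was not among the genes that passed, and neither was Trp53 in this fit.

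**Figure D1:**
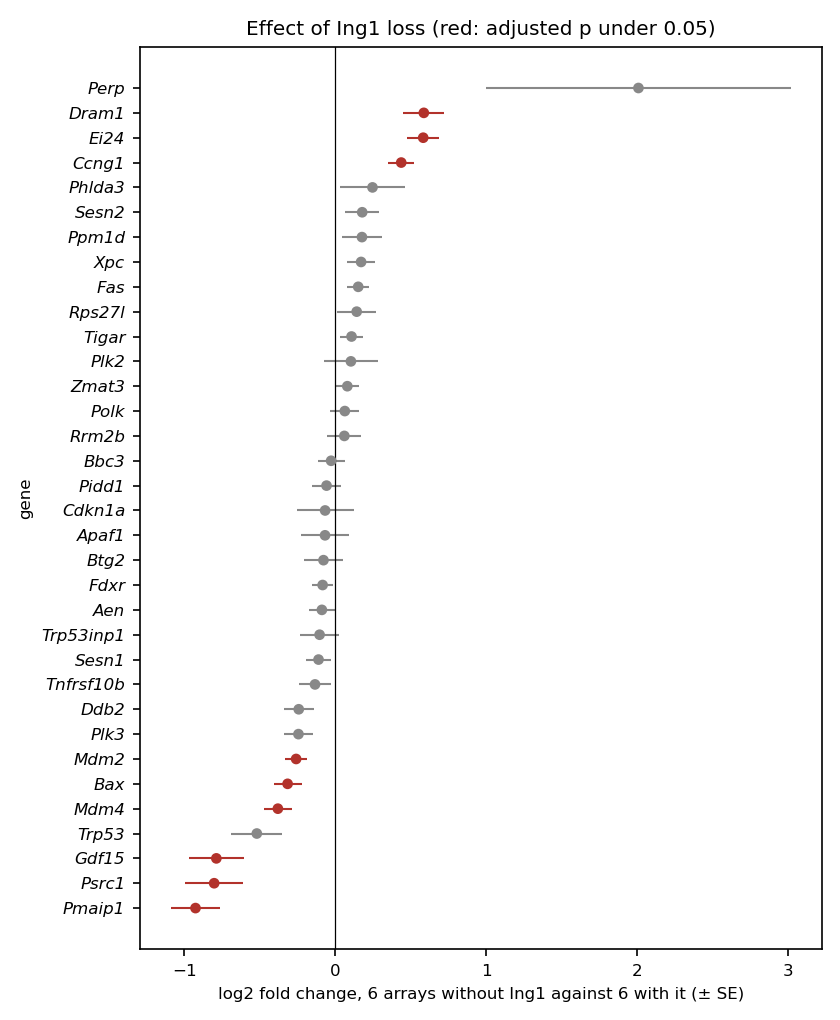
Log2 fold change (horizontal axis, ± SE) of each of the 34 tested p53 genes between 6 arrays without Ing1 and 6 with it, ordered by size. The 9 red points passed an adjusted p of 0.05 and run from -0.93 (Pmaip1) to 0.59 (Dram1); Perp, at 2.01, has the widest error.

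Among the hub and its inhibitors, the level of Trp53 was 8.28, 9.02 and 8.35 on the WT arrays, 8.36, 8.20 and 8.96 in Gadd45a-KO, 7.96, 8.28 and 8.15 in Ing1-KO, and 7.63, 7.94 and 8.10 in DKO. The lower values lay without Ing1, but the highest array without Ing1 (8.28) overlapped the lowest with it (8.20). The difference was -0.52 (SE 0.17, adjusted p = 0.0552), short of the threshold. In limma with the slide as a block it passed (adjusted p = 0.0414), where 20.2% of all genes did. Trp53 passed in 4 of 25 alternatives, with differences between -0.60 and -0.37. Within the slides of the main fit the difference lay between -0.53 and -0.50.

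Mdm2, the main inhibitor and also a target of p53, had 12.78, 12.74 and 12.74 in WT and 12.80, 12.87 and 13.02 in Gadd45a-KO. Without Ing1 it had 12.64, 12.73 and 12.62 in Ing1-KO and 12.30, 12.49 and 12.61 in DKO. Every array without Ing1 lay below every array with it, though the closest pair was 12.73 against 12.74. Mdm2 fell by 0.26 (SE 0.07, adjusted p = 0.0373), a ratio of 1.20. Mdm4 had 10.27, 9.93 and 10.27 in WT, 10.14, 10.03 and 9.95 in Gadd45a-KO, 9.78, 9.87 and 9.73 in Ing1-KO, and 9.85, 9.56 and 9.52 in DKO. Its groups did not overlap either, and it fell by 0.38 (SE 0.09, adjusted p = 0.0225). A second, dimmer probe of Mdm4 gave -0.24 (SE 0.14, adjusted p = 0.258) and did not pass. Mdm2 and Mdm4 did not pass when arrays were centred on their median, and Mdm2 passed in 10 of 25 alternatives. Without the epidermal arrays Mdm2 differed by -0.18 (SE 0.09, adjusted p = 0.375). Ppm1d, the phosphatase Wip1 that shuts the p53 response off, did not pass (0.18, adjusted p = 0.375).

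**Figure D2:**
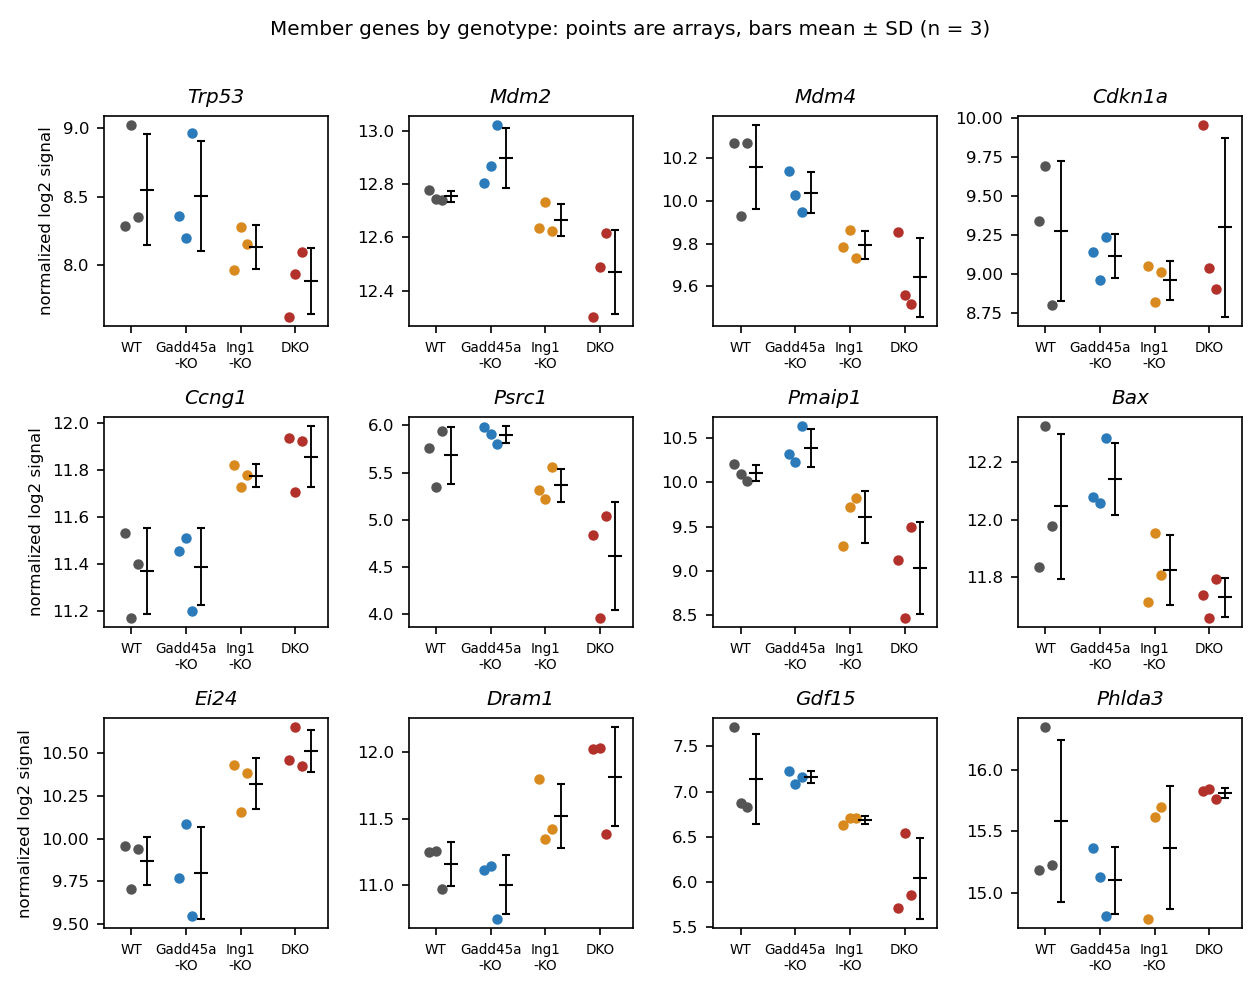
Normalized log2 signal of 12 p53 genes by genotype: points are the 3 arrays of each group, horizontal marks the mean and bars ± SD. Ccng1, Ei24 and Dram1 lie higher and Mdm2, Mdm4, Pmaip1 and Gdf15 lower on all 6 arrays without Ing1, while Cdkn1a and Phlda3 overlap.

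Of the 6 cell cycle genes, Ccng1 rose and Psrc1 fell. Cdkn1a encodes p21, the inhibitor of cyclin-dependent kinases that carries out much of the p53 arrest. Its levels were 9.34, 9.69 and 8.80 in WT, 9.14, 8.96 and 9.23 in Gadd45a-KO, 9.05, 8.82 and 9.01 in Ing1-KO, and 9.95, 9.04 and 8.90 in DKO. These ranges overlapped throughout, with DKO replicate 1 highest and WT replicate 3 lowest. The difference with Ing1 was -0.07 (SE 0.19, adjusted p = 0.839), and its sign turned when arrays were centred on the median. A second probe gave -0.37 (adjusted p = 0.284).

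Ccng1, cyclin G1, a target of p53 that takes part in the control of Mdm2, had 11.53, 11.17 and 11.40 in WT and 11.45, 11.51 and 11.20 in Gadd45a-KO. It had 11.82, 11.73 and 11.78 in Ing1-KO and 11.94, 11.71 and 11.92 in DKO. All 6 arrays without Ing1 were above all 6 with it, and Ccng1 rose by 0.44 (SE 0.09, adjusted p = 0.0119), a ratio of 1.35. Psrc1, a microtubule-binding protein of the mitotic spindle, had 5.76, 5.35 and 5.94 in WT, 5.99, 5.91 and 5.81 in Gadd45a-KO, 5.31, 5.22 and 5.56 in Ing1-KO, and 4.84, 3.96 and 5.04 in DKO. It was a dim gene, not well above background on DKO replicate 2, and Ing1-KO replicate 3 overlapped WT replicate 2. Psrc1 fell by 0.80 (SE 0.19, adjusted p = 0.0218). The size depended on the background correction, at -0.27 with normexp and -0.55 with the authors' values, and was -0.58 (SE 0.19, adjusted p = 0.21) without the epidermal arrays.

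The other 3 did not pass. Plk3, a stress-activated polo-like kinase, was nearest the threshold (-0.24, SE 0.10, adjusted p = 0.0998). Plk2, its relative, had 7.92, 8.41 and 7.54 in WT, 7.80, 7.58 and 7.43 in Gadd45a-KO, 8.14, 7.79 and 7.49 in Ing1-KO, and 7.78, 8.38 and 7.74 in DKO. The 4 groups overlapped. Btg2, an anti-proliferative target of p53, differed by -0.08 (adjusted p = 0.713).

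Among the 11 genes of apoptosis, Ei24 rose and Pmaip1 and Bax fell. Pmaip1 encodes Noxa, a BH3-only protein that frees the mitochondrial death pathway. It had 10.20, 10.09 and 10.02 in WT, 10.32, 10.22 and 10.63 in Gadd45a-KO, 9.28, 9.73 and 9.83 in Ing1-KO, and 9.12, 8.48 and 9.50 in DKO. The groups with and without Ing1 did not overlap. Its 3 lowest arrays, DKO replicates 2 and 1 and Ing1-KO replicate 1, were those with epidermal transcripts. Pmaip1 fell by 0.93 (SE 0.16, adjusted p = 0.00794), to a level 1.90-fold lower, with the smallest p of the 34 genes. Without those 3 arrays the difference was -0.61 (SE 0.12), short of the threshold.

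Ei24, a membrane protein of the endoplasmic reticulum that acts in autophagy and was first described as a gene induced by p53, had 9.96, 9.71 and 9.94 in WT and 9.77, 10.08 and 9.55 in Gadd45a-KO. It had 10.43, 10.16 and 10.38 in Ing1-KO and 10.46, 10.65 and 10.43 in DKO. All arrays without Ing1 were above the others, and Ei24 rose by 0.58 (SE 0.10, adjusted p = 0.00834). Bax, which opens the mitochondrial outer membrane, had 11.84, 12.32 and 11.98 in WT, 12.08, 12.06 and 12.28 in Gadd45a-KO, 11.71, 11.95 and 11.81 in Ing1-KO, and 11.74, 11.66 and 11.79 in DKO. WT replicate 1 lay within the range of the arrays without Ing1. Bax fell by 0.32 (SE 0.09, adjusted p = 0.0399) and passed in 10 of 25 alternatives. It did not pass with median centring, with no filter or with plain empirical Bayes (the cause was not tested). Without the epidermal arrays it differed by -0.26 (SE 0.13, adjusted p = 0.366).

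Bbc3, which encodes Puma, the other BH3-only target, differed by -0.03 (SE 0.09, adjusted p = 0.866), the smallest difference of the 34 genes. Apaf1, the scaffold of the apoptosome, had 7.91, 7.10 and 7.86 in WT, 8.20, 8.12 and 7.77 in Gadd45a-KO, 7.85, 7.86 and 7.85 in Ing1-KO, and 7.44, 7.59 and 7.99 in DKO. Phlda3, which restrains the kinase Akt, had 15.19, 16.34 and 15.22 in WT, 15.36, 15.13 and 14.82 in Gadd45a-KO, 14.79, 15.62 and 15.70 in Ing1-KO, and 15.83, 15.84 and 15.76 in DKO. Neither separated by genotype: for Phlda3 the DKO arrays were close together, but WT replicate 2 was above them all. Aen, Pidd1, Zmat3 and Trp53inp1 differed with Ing1 by between -0.10 and 0.08 (adjusted p from 0.501 to 0.712).

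Perp, an effector of apoptosis that is also a part of desmosomes in the epidermis, is described because of its spread, which was noticed in the data. It had 6.27, 5.91 and 6.18 in WT, 7.59, 6.14 and 6.27 in Gadd45a-KO, 11.48, 6.05 and 5.94 in Ing1-KO, and 10.43, 10.67 and 5.84 in DKO. The 3 highest values are those of the arrays with epidermal transcripts, and the fourth highest, Gadd45a-KO replicate 1, is the next in those transcripts. The genes whose pattern was most like that of Perp, picked as those with the highest Pearson r of all genes tested, included Krt5, the keratin of basal epidermal cells (r 0.995), and Dsp, the desmosomal plaque protein (r 0.992). These values over 12 arrays rest on the same high arrays. The difference with Ing1 was 2.01 (SE 1.01, adjusted p = 0.19) with all arrays and -0.47 (SE 0.32, adjusted p = 0.495) without those 3.

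**Figure D3:**
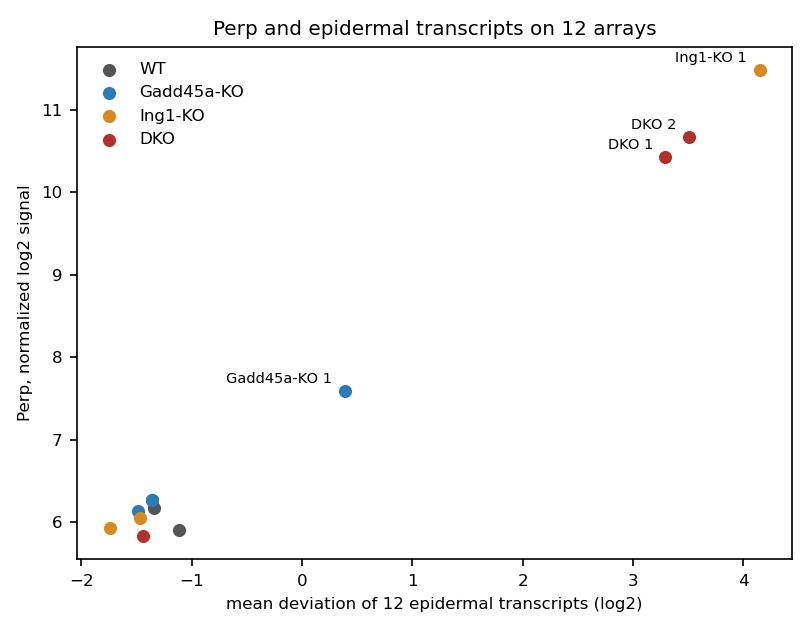
Perp (vertical axis, normalized log2 signal) against the mean deviation of 12 epidermal transcripts (horizontal axis, log2) on each array, coloured by genotype. Ing1-KO 1, DKO 1 and DKO 2 stand at the upper right with Perp at 10.43 or more; Gadd45a-KO 1 is between them and the other arrays.

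The death receptors and the genes of DNA repair held no gene that passed. Fas had 11.29, 11.11 and 11.15 in WT, 11.37, 11.20 and 11.18 in Gadd45a-KO, 11.23, 11.34 and 11.32 in Ing1-KO, and 11.56, 11.42 and 11.35 in DKO. The DKO arrays were mostly higher, but the lowest of them (11.35) lay below Gadd45a-KO replicate 1, so the groups overlapped (0.15 with Ing1 loss, SE 0.07, adjusted p = 0.162). Tnfrsf10b, the mouse receptor of the ligand Trail, differed by -0.13 (adjusted p = 0.409). Ddb2 and Xpc, which recognise damage in nucleotide excision repair, differed by -0.24 (adjusted p = 0.119) and 0.17 (adjusted p = 0.226). Polk, a translesion polymerase, and Rrm2b, a subunit of ribonucleotide reductase, each differed by 0.06 on their brighter probes. Their second, dimmer probes gave -0.26 and 0.67, neither past the threshold, and that of Rrm2b was well above background on 9 of 12 arrays.

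Of the 7 genes of metabolism and stress, Dram1 rose and Gdf15 fell. Dram1, a lysosomal membrane protein needed for autophagy driven by p53, had 11.25, 11.26 and 10.97 in WT, 11.12, 11.14 and 10.75 in Gadd45a-KO, 11.80, 11.35 and 11.42 in Ing1-KO, and 12.02, 12.03 and 11.39 in DKO. Its groups did not overlap, and its 3 highest arrays were those with epidermal transcripts. Dram1 rose by 0.59 (SE 0.14, adjusted p = 0.0191), and without those arrays the difference was 0.30 (SE 0.13, adjusted p = 0.288).

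Gdf15, a secreted stress cytokine that lowers appetite, had 7.71, 6.88 and 6.83 in WT, 7.22, 7.09 and 7.16 in Gadd45a-KO, 6.63, 6.71 and 6.71 in Ing1-KO, and 5.71, 6.55 and 5.86 in DKO. The arrays without Ing1 were all below the others, and Gdf15 fell by 0.79 (SE 0.18, adjusted p = 0.0188), or by 0.48 with normexp. Without the 3 epidermal arrays its difference was -0.87 (SE 0.21, adjusted p = 0.135). Sesn1 and Sesn2, which restrain mTORC1, Tigar, which turns glucose from glycolysis towards the pentose phosphate pathway, Fdxr, a mitochondrial electron carrier, and Rps27l, a ribosomal protein that binds Mdm2, differed by between -0.11 and 0.18. None of these passed.

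**Figure D4:**
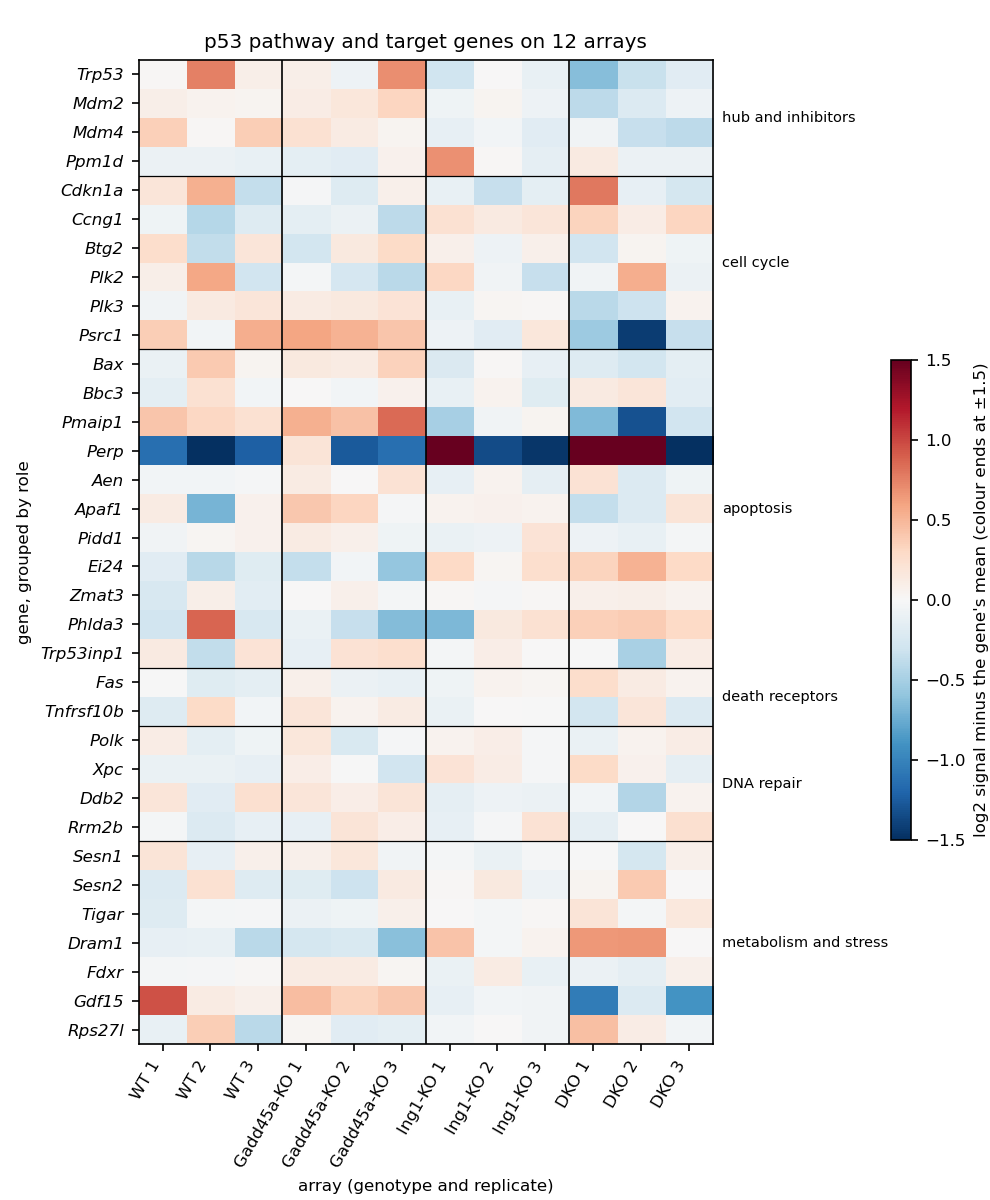
Deviation of each of the 34 tested p53 genes from its own mean over the 12 arrays (colour, log2, ending at ±1.5), with genes grouped by role and arrays by genotype. Perp lies above the colour range on 3 arrays and below it on 1; Pmaip1, Psrc1 and Gdf15 have their lowest values on DKO arrays, and Ei24, Ccng1 and Dram1 are higher on the right side, without Ing1.

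The comparison of 6 against 6 arrays is the mean of DKO against Gadd45a-KO and Ing1-KO against WT, which share no array. Taken apart, these 2 are therefore not a further measurement of the Ing1 effect. In both, the epidermal arrays lie on the side without Ing1. In DKO against Gadd45a-KO, 7 of 34 genes passed, beside 15.0% of all genes. An unadjusted p under 0.05 in limma was found for 12 of 34 (35.3%), near the 32.9% of all genes. In this comparison 1 passed with only the arrays compared (1.57% of all genes) and 0 with the array column as a block (0.00954%). Leaving out the epidermal arrays leaves 1 DKO array, so the number passing is not given for that fit. Pmaip1 fell by 1.36 (SE 0.23, adjusted p = 0.00992), Psrc1 by 1.28 (SE 0.27, adjusted p = 0.0177), Gdf15 by 1.12 (SE 0.26, adjusted p = 0.021) and Mdm2 by 0.43 (SE 0.11, adjusted p = 0.0252). Dram1 rose by 0.81 (SE 0.19, adjusted p = 0.0228), Ei24 by 0.71 (SE 0.15, adjusted p = 0.0166) and Ccng1 by 0.47 (SE 0.12, adjusted p = 0.0313). Without the epidermal arrays these 7 genes kept their sign, at -0.89, -0.86, -1.30, -0.28, 0.38, 0.63 and 0.54.

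In Ing1-KO against WT the same 7 genes had differences of -0.49, -0.32, -0.46, -0.09, 0.36, 0.45 and 0.41. All 7 had the same sign, as did 95.6% of all genes that passed in DKO against Gadd45a-KO. Over all 34 genes, 26 (76.5%) had the same sign in both, beside 70.9% of all genes. In Ing1-KO against WT itself 0 of 34 passed in limma, beside 0.00318% of all genes. An unadjusted p under 0.05 was found for 3 (8.82%), near the 8.60% of all genes. The smallest p values there were those of Ccng1 (0.00627), Ei24 (0.0096) and Mdm4 (0.017).

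**Figure D5:**
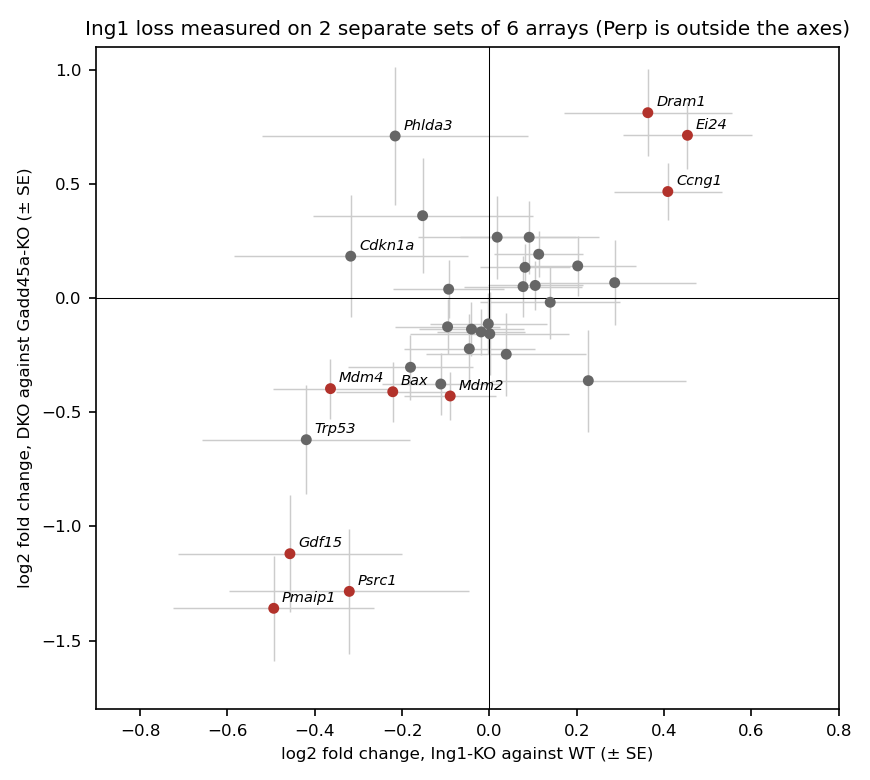
Log2 fold change of p53 genes in Ing1-KO against WT (horizontal axis) and in DKO against Gadd45a-KO (vertical axis), each ± SE, from 2 sets of 6 arrays with none in common. Red marks the 9 genes that passed in the comparison of 6 against 6 arrays, which is the mean of these 2. Pmaip1, Psrc1 and Gdf15 lie at the lower left, Dram1, Ei24 and Ccng1 at the upper right, and Perp (1.71 and 2.31) lies outside the axes.

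Differences were larger in DKO against Gadd45a-KO than in Ing1-KO against WT for several genes, and the interaction tests that difference. In it 0 of 34 genes passed, beside 0% of all genes, and 3 (8.82%) had an unadjusted p under 0.05, beside 5.93% of all genes. These 3 were Pmaip1 (-0.86, SE 0.33), Psrc1 (-0.96, SE 0.39) and Mdm2 (-0.34, SE 0.15), each with an adjusted p of 0.728.

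In DKO against WT 0 of 34 genes passed, beside 0.162% of all genes. An unadjusted p under 0.05 in limma was found for 12 of 34 (35.3%), beside 23.0% of all genes. Pmaip1 (-1.07, SE 0.23, adjusted p = 0.065), Ei24 (0.64, SE 0.15, adjusted p = 0.0719) and Gdf15 (-1.10, SE 0.26, adjusted p = 0.0723) were nearest. With the slide as a block 3 genes passed, beside 2.08% of all genes: Pmaip1 (adjusted p = 0.043), Dram1 (0.0447) and Psrc1 (0.0489). Without WT replicate 2, 4 genes passed (3.78% of all genes), and without DKO replicate 3, 7 did (10.5%). DKO replicate 3 is the only DKO array without high epidermal transcripts, so the 7 rest on DKO arrays that all carry them.

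No p53 gene passed in a comparison of Gadd45a status. In Gadd45a-KO against WT 0 of 34 passed, beside 0% of all genes, and 0 had an unadjusted p under 0.05, beside 2.35% of all genes. Apaf1 (0.41, SE 0.22), Phlda3 (-0.48, SE 0.30) and Plk2 (-0.35, SE 0.25) had the smallest p values, at 0.094, 0.139 and 0.186 before adjustment in limma. In DKO against Ing1-KO 0 of 34 passed, beside 0.00318% of all genes. An unadjusted p under 0.05 was found for 3 (8.82%), beside 3.51% of all genes. They were Psrc1 (-0.75, SE 0.27), Pmaip1 (-0.58, SE 0.23) and Gdf15 (-0.64, SE 0.26), each with an adjusted p of 0.948. In the comparison of 6 arrays labelled as lacking Gadd45a with the 6 others, 0 of 34 passed, beside 0.00318% of all genes. Of the 34, 0 had an unadjusted p under 0.05, beside 0.934% of all genes. There Gdf15 (-0.31, SE 0.18), Fas (0.11, SE 0.07) and Mdm4 (-0.14, SE 0.09) had the smallest p values. Over all 4 genotypes in limma's F test, Pmaip1 (adjusted p = 0.0379) and Ei24 (adjusted p = 0.0483) passed, 2 of 34 beside 1.99% of all genes.

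The 9 genes that passed with Ing1 loss kept their sign on each of the 3 slides, where each slide holds 2 arrays without Ing1 and 2 with it. Pmaip1, for instance, differed by between -1.06 and -0.66 within the slides, and Ei24 by between 0.51 and 0.66. These genes were picked on the same arrays, so this is no separate test. For the 7 whose groups did not overlap, the sign in any part of these arrays was fixed beforehand. Of all 34 genes, 20 had 1 sign on every slide. Position on the slide was less balanced. Of the 4 array columns, the third held 3 arrays without Ing1, which are the 3 with epidermal transcripts, and 1 with it. The fourth held 2 arrays, both with Ing1. Within each of the 3 columns that held both kinds, all 9 genes kept their sign, and with the column as a block 0 of the 9 passed (adjusted p from 0.0578 to 0.25), beside 0.124% of all genes.

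Without the 3 epidermal arrays, which leaves 3 arrays without Ing1, 0 of 34 genes passed in limma (0.124% of all genes did). The 9 genes all kept their sign. Pmaip1 then differed by -0.61 (SE 0.12, adjusted p = 0.0919), Ccng1 by 0.46 (SE 0.12, adjusted p = 0.141), Ei24 by 0.51 (SE 0.14, adjusted p = 0.164) and Mdm4 by -0.44 (SE 0.12, adjusted p = 0.149). Without the 2 arrays highest in muscle transcripts, only Pmaip1 passed in limma (-0.87, adjusted p = 0.0491), beside 1.83% of all genes. Leaving out single arrays gave 4 genes without Ing1-KO replicate 1 (Ccng1, Pmaip1, Ei24 and Gdf15) and 5 without WT replicate 3 (these and Dram1). The shares over all genes in these fits are not given. With median centring 3 genes rose and 3 fell, beside 14.6% of all genes that passed (63.7% of calls over all genes were then higher, against 43.2%).

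Other genes of the pathway were read from lists of regulators and of further targets. Of 28 regulators and relatives of p53, 3 rose and 2 fell with Ing1 loss (17.9%, beside 16.0% of all genes, median -0.06). Cdkn2a, whose locus encodes the Mdm2 inhibitor Arf and the kinase inhibitor p16, fell by 0.98 (SE 0.21, adjusted p = 0.0158). It was 7.28 ± 0.17 (SD, n = 3) in WT, 7.98 ± 0.05 in Gadd45a-KO, 6.93 ± 0.24 in Ing1-KO and 6.37 ± 0.77 in DKO, lowest without Ing1. Hipk2, a kinase that phosphorylates p53, rose by 0.61 (SE 0.14, adjusted p = 0.0177), Kat2b, an acetyltransferase of p53, by 0.71 (SE 0.17, adjusted p = 0.0198), and Ppp1r13l, the inhibitor iASPP, by 0.67 (SE 0.18, adjusted p = 0.0286).

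Of 34 further target genes, 1 rose and 2 fell with Ing1 loss (8.82%, beside 16.0% of all genes, median -0.03). Cd82, a tetraspanin, fell by 0.47 (SE 0.11, adjusted p = 0.0213) and Shisa5, a pro-apoptotic membrane protein, by 0.46 (SE 0.13, adjusted p = 0.0334), while Hspa4l, a heat shock protein, rose by 0.42 (SE 0.10, adjusted p = 0.0195). Ninj1, which acts in rupture of the cell membrane, had 13.60 ± 0.09 in Gadd45a-KO and between 13.18 and 13.21 in the other groups on average. It did not pass with Ing1 loss (-0.19, adjusted p = 0.103). Without the epidermal arrays 0 of the 28 regulators and 0 of these 34 targets passed in limma, beside 0.124% of all genes. Cdkn2a then differed by -0.68 (SE 0.14, adjusted p = 0.0995), nearest the threshold of those named.

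Proliferation genes, many of which p53 holds down through p21, held more falls than rises with Ing1 loss. Of 14 measured, 0 rose and 4 fell (28.6%, beside 9.09% of all genes that fell), and the median was -0.54. Birc5, the apoptosis inhibitor survivin, fell by 0.74 (SE 0.17, adjusted p = 0.0198), Cdc20, an activator of the anaphase-promoting complex, by 0.70 (SE 0.16, adjusted p = 0.0175), and cyclins Ccna2 and Ccnb2 by 0.63 each (adjusted p = 0.0238 and 0.0323). In DKO against Gadd45a-KO 8 of 14 fell, beside 8.48% of all genes, with a median of -0.97. By array the list was lowest on DKO replicate 2, followed by DKO replicate 1 (-0.73 from its mean over all arrays), and highest on Ing1-KO replicate 2 (0.61), so arrays without Ing1 lay at both ends. Both low DKO arrays are among those with epidermal transcripts. Without the 3 epidermal arrays 0 of 14 passed in limma with Ing1 loss, and the median was -0.12. In DKO against Gadd45a-KO, where this leaves 1 DKO array, the median was then -0.32.

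Some markers of other cells also passed with Ing1 loss, a comparison in which 9.09% of all genes fell and 6.93% rose. Of T cell markers, 4 of 6 fell with Ing1 loss (Cd3e, Cd8a, Cd3d and Lck, median of the list -0.74), and of neutrophil markers 5 of 6 (median -1.99), with Camp highest in Gadd45a-KO at 10.52 ± 1.43. By array the neutrophil list lay at 0.35, 0.12 and -1.36 from its mean in WT and at 3.68, 2.46 and 0.85 in Gadd45a-KO. Without Ing1 it ranged from -1.67 to 0.25. In Ing1-KO against WT its median was -0.22 and 0 of 6 passed, while in DKO against Gadd45a-KO the median was -3.82 and 5 fell. The fall of this list thus lay mostly in the comparison with the high Gadd45a-KO arrays. The T cell list ranged from 0.10 to 0.72 with Ing1 and from -1.38 to 0.19 without it. Of adipocyte markers 3 of 8 rose (Lep, Lipe and Plin1, median 0.52), and of macrophage markers 1 of 5 measured fell (Csf1r, median -0.42). Tek among 5 endothelial markers, Lrrn4 among 3 mesothelial and Hba-a1 among 4 of red blood cells rose, and none of 7 muscle genes, of 12 epidermal genes or the 1 epididymal gene measured passed. Without the epidermal arrays no gene of the lists of fat, blood, immune, vessel, mesothelial, muscle and epididymal markers passed in limma. Medians with Ing1 loss were then -0.40 for the T cell list, -2.21 for the neutrophil list and 0.27 for the adipocyte list. In bulk tissue, fewer cells of a type and less RNA per cell cannot be told apart. The part of these cells in the differences of the p53 genes was not tested.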

How the data were processed

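Each of 12 arrays (Cy3 only) measured an RNA pool of 3 mice, and each genotype had 3. Per the file headers, spot intensity was read out by the software Feature Extraction 10.7.3.1, and the deposited processed signal was already background-subtracted. The authors' deposited table holds log2 values, and limma 3.26.9 is named in the submitters' processing notes. Each of its columns matched its own array (r at least 0.843, other arrays at most 0.422). It was used as an alternative.

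Flagged spots were left out, which dropped 94 of 55681 probes. The log2 processed signal was averaged per probe and shifted to a common 75th percentile. RefSeq accessions named 27509 probes through a table of GRCm38.p6. A probe entered the tests if 3 or more arrays had it well above background, and the brightest probe stood for its gene. limma 3.58.1 in R 4.3.3 fitted 4 genotype means (8 residual degrees of freedom, trend and robust moderation). Tests were two-sided, with Benjamini-Hochberg adjustment over all 31461 features and a threshold of 0.05. The script was tested on simulated data.

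The genes, lists and tests were chosen with earlier results of these data known. Values on every array are given for Trp53, Mdm2, Cdkn1a and, in each of 8 comparisons, the 3 genes with the smallest p and those past the threshold. Of other lists at most 4 genes are named, by the smallest p of the F test. The closer account of Perp and the epidermal list were chosen after the data had been seen.

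Replicate number equals slide and scan, per the file headers. Deviations from group means correlated between arrays of the same number at -0.28 to 0.42 (18 pairs, median 0.12), and between other arrays at -0.36 to 0.31. The number of arrays limits the precision.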

Additional observations from a re-analysis of the deposited data

How the results depend on the processing

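The 9 genes past the threshold with Ing1 loss kept their direction in every alternative in which they were measured. Blocking on array column turned the count of 9 to 0 (0.124% of all genes passed). Leaving out the arrays high in muscle transcripts turned it to 1 (1.83%), and leaving out those high in epidermal transcripts to 0 (0.124%). Both sets were chosen after the data had been seen. With single arrays left out it was 4 to 12. Shares over all genes with single arrays left out are not given here. Median centring left 6 (14.6% of all genes passed), and the replicate block gave 10 (20.2%), with Trp53 added. In the main fit 16.0% of all genes passed. In DKO against Gadd45a-KO, 7 (15.0% of all genes) became 1 with only the arrays compared and 0 with the column block (0.00954%). It became 1 without the muscle arrays (0.950%) and 10 with the replicate block (19.3%). The fit without the epidermal arrays leaves 1 DKO array and is not counted. With single arrays left out it was 1 to 11 (1 without Gadd45a-KO replicate 3, 2 without Gadd45a-KO replicate 2 or DKO replicate 2, 3 without DKO replicate 1, 11 without WT replicate 2). In DKO against WT the 0 became 3 with the replicate block and 0 to 7 with single arrays left out. The 7 came without DKO replicate 3, where every DKO array left carries epidermal transcripts. The replicate block changed no other count of calls by more than 1.5 times. The F test's 2 became 1 with quantile normalization, median centring, normexp, the authors' values or no filter. It became 0 with plain empirical Bayes, the row block, the column block or without the muscle or epidermal arrays, and 0 to 5 with single arrays left out. The difference of Cdkn1a with Ing1 loss turned to 0.00618 with median centring and ranged from -0.23 to 0.0364 with single arrays left out. The cause of these changes was not tested, except that leaving out arrays also lowers the number of arrays. Medians over the p53 genes stayed small. In Ing1 loss the median was 0.0109 with median centring, -0.037 with normexp, -0.0214 with the column block, -0.0351 without the muscle arrays, -0.0296 without the epidermal arrays and -0.0655 to -0.0141 with single arrays left out. In DKO against WT it was 0.111 with median centring, -0.0357 with the column block, -0.0137 without the muscle arrays, -0.0315 without the epidermal arrays and -0.0137 to 0.0519 with single arrays left out. In DKO against Gadd45a-KO it was -0.0339 with quantile normalization, 0.0063 with median centring, -0.0391 with normexp, -0.0181 with no filter or with a filter on all 12 arrays, -0.0986 with the column block and -0.113 to -0.0198 with single arrays left out. In DKO against Ing1-KO it was -0.0481 with quantile normalization, -0.0458 with the column block and -0.0728 to 0.00744 with single arrays left out. In Ing1-KO against WT it was 0.0638 with median centring, in Gadd45a-KO against WT 0.033 to 0.0729 with single arrays left out, and in the interaction -0.105 with the authors' values and -0.0954 to -0.030 with single arrays left out. Over the alternatives of the 36 results for named p53 genes, those 9 included, 793 values kept their direction and side of the threshold, 109 no longer passed, 10 newly passed and 3 changed direction (all 3 for Cdkn1a with Ing1 loss). Genes near background, such as Psrc1, are measured least precisely.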
